A study of Mus musculus with 68 samples.

Results

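Zfp352, Tdpoz1 to Tdpoz5, Ubtfl1, Sp110 and Arg2 are genes of the kind that the mouse embryo transcribes at the 2-cell stage together with the endogenous retrovirus MERVL. These 9 genes, of the 24421 gene symbols in the tables, were chosen by name and followed through the preimplantation development of embryos made by somatic cell nuclear transfer (SCNT). All 9 symbols were found in all 68 libraries, which gave 612 values. A level is given in transcripts per 1000000 (TPM) as deposited, summed over the rows of a symbol. The level was read for its start at the 2-cell stage, its shut-off, the spread between libraries of late 2-cell embryos and what was left in blastocysts.

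The study was about the repressive histone mark H3K9me3 and its reprogramming in mouse SCNT embryos, and these libraries measured RNA at the matching stages. Nuclei of adult cumulus cells (CCs), the somatic cells around the oocyte, were placed into enucleated B6D2F1 oocytes (C57BL/6j × DBA/2), which were then activated with SrCl2. Pools of blastomeres were sequenced by Smart-seq2, a full-length cDNA method for a few cells. A second set of libraries came from fertilized blastocysts after a morpholino (MO), an antisense oligomer that blocks translation or splicing, had been injected at the zygote stage. The SCNT series held 3 libraries of CCs, 6 each of embryos at 6 and 14 h post activation (6 hpa and 14 hpa), early 2-cell (E2C), late 2-cell (L2C), 8-cell (8C) and morula stages, 5 at the 4-cell (4C) stage, and 6 each of the lineages of the blastocyst, the inner cell mass (ICM) and the trophectoderm (TE). The fertilized set held C57BL/6j blastocysts, with 2 libraries each of control, Max MO and Mcrs1 MO ICM and 2 each of the same TE groups. The control group is labelled control and untreated in one field, while the protocol names a random control MO. For the sequenced blastocysts the paper gives a higher concentration of control MO than of Max MO, and the lowest for Mcrs1 MO. By that account the compared groups differed in MO dose as well as in target. ICM and TE were separated by micromanipulation, so some carry-over between them is possible. The labels number the libraries but do not say that they came from separate batches of embryos, so p-values measure only the spread between these libraries, which may be technical. In pools of this kind, fewer cells with a transcript and less transcript per cell cannot be told apart.

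MERVL is an endogenous retrovirus of mice whose long terminal repeats act as promoters for themselves and for genes beside them, so that part of the first embryonic transcription yields chimeric transcripts. This programme is switched on by factors such as Dux and is normally brief. It is known as a mark of the totipotent 2-cell state, and embryos made by nuclear transfer often start it poorly. Zfp352 encodes a C2H2 zinc finger protein and is a common marker of that state. The Tdpoz genes encode proteins with a TRAF-like and a POZ domain, related to Spop, an adaptor of a cullin ubiquitin ligase, and lie in a cluster. Ubtfl1 is a relative of Ubtf, an HMG box factor of ribosomal RNA transcription. Sp110 is a nuclear body protein of the Sp100 family. Arg2 is the mitochondrial arginase, which splits arginine into ornithine and urea.

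The libraries held 1.00 to 5.17 gigabases over the listed transcripts and 6177 to 11771 genes at 1 TPM or more. The markers followed the labels at the first stages: the summed TPM of cumulus markers was 499 to 600 in CCs and 3.77 to 85.1 in embryos. Transcripts of the oocyte summed to 4219 to 11434 at 6 hpa and still to 345 to 1103 at L2C, then to 18.6 to 96.7 at 4C. Several SCNT libraries stood apart. L2C replicate 1 had 9935 genes at 1 TPM or more against 10770 or more in the other L2C libraries, and reference genes took 30.4% of its TPM against 51.4% or more. Morula replicate 3 stood apart in the 9 genes themselves, while its correlation across genes with the mean of the other morula libraries (r = 0.941) was close to that of replicate 2 (0.948). Results that rest on either library are given with it and without it, an alternative chosen after seeing the data. SCNT ICM replicates 1 to 3 had 6177 to 6771 genes at 1 TPM or more against 9011 to 10032 in replicates 4 to 6, and r of 0.848 to 0.870 with their stage mean against 0.923 to 0.934. Reference genes took 44% to 53.1% of the TPM in 4C replicates 1 to 3 and 73.5% and 75.6% in replicates 4 and 5. Genes are not independent replicates, so each r is a description.

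The 9 genes lie on 5 chromosomes of mm10. Zfp352 lies on the plus strand of chromosome 4 (90218820-90225687) with 2 exons. Tdpoz1, on the minus strand of chromosome 3 (93669333-93676283), also has 2 exons, while Tdpoz2 (93651542-93652686, minus), Tdpoz3 (93826020-93827117, plus) and Tdpoz4 (93796398-93797510, plus) are single-exon models in the same cluster. Tdpoz5 is listed at a pair of copies on the minus strand (93960292-93961314 and 94071622-94072644), and 50 libraries merge them into 1 row. The 10 pairs of Tdpoz transcripts are 78.8% to 88.4% identical, with identical runs of up to 75 bases, so reads of 1 member may have been given to another and the split between them is uncertain. Ubtfl1 lies on chromosome 9 (18404418-18411502, plus) with 3 exons. Sp110 lies on chromosome 1 (85576899-85603891, minus) with 12 exons, and Arg2 on chromosome 12 (79130788-79156301, plus) with 8. The libraries do not mark strand, and a locus assembled on the opposite strand overlapped Arg2 in all 68 libraries, Sp110 in 59, Tdpoz5 in 30, Ubtfl1 in 13, and Tdpoz4, Tdpoz2 and Tdpoz3 in 5, 4 and 3. Such loci reached 557 TPM over Tdpoz5, 319 over Ubtfl1 and 211 over Sp110, so part of the signal of these 7 genes may belong to another transcript. None overlapped Zfp352 or Tdpoz1.

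RefSeq windows of the 250 bases before the start site (GRCm38.p6) were at hand for 6 of the 9 genes: Zfp352, Tdpoz1, Tdpoz4, Tdpoz5, Ubtfl1 and Sp110. They are shown for 3 of them because these share the longest identical word, of 14 letters, found in at least 3 of the windows on either strand. A second word of that length, ACACACCTTTAATC, is held by the same 3 genes. It is shifted by 1 base in Zfp352 and Tdpoz1. In Sp110 it occurs 3 times on the strand of the gene, at sites other than those in capitals. Capitals mark CACACCTTTAATCC, or its reverse complement GGATTAAAGGTGTG, and each window is printed 5′ to 3′ on the strand of its gene.
Zfp352 (chr4:90218570-90218819, plus strand): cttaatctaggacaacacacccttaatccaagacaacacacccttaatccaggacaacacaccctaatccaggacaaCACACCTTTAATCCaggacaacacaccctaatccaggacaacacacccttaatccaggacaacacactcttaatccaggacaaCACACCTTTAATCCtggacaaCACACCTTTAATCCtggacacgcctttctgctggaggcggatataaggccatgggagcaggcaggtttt
Tdpoz1 (chr3:93676284-93676533, minus strand): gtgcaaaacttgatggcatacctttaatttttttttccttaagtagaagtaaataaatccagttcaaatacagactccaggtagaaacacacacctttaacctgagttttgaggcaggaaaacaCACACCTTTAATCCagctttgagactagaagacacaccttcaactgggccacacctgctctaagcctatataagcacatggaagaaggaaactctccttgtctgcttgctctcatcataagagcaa
Sp110 (chr1:85603892-85604141, minus strand): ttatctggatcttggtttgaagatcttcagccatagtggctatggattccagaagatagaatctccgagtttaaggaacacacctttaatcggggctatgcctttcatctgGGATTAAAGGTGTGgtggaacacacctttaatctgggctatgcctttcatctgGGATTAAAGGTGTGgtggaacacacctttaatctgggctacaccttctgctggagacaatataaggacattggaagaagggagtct

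The window of Zfp352 holds the word 3 times within a tandem array, that of Tdpoz1 once, and that of Sp110 2 times on the other strand. Of all 32851 RefSeq windows of this length, searched on both strands, 40 hold it, or 0.122%, and 3 hold it more than once. The second word is held by 40 windows, and by 23 of them more than once. Both words were found after the sequences had been seen, so their rarity is a description. The shorter motif TAATCC, contained in the word and a core recognised by paired-like and Obox-type homeodomains, occurs 9 times before Zfp352, once before Tdpoz1 and 2 times before Sp110, and is present in 6.25% of all windows. The letters TATAAG begin 28 bases before the start of Zfp352, 27 before that of Sp110 and 58 before that of Tdpoz1, occur once on the other strand before Ubtfl1, and are held by 6.65% of all windows. The word was absent from the windows of Tdpoz4, Tdpoz5 and Ubtfl1. The Tdpoz5 window lies before the copy at 93960292-93961314, and no window of Tdpoz5 lay before the copy at 94071622-94072644. Sp110 has 2 windows, and only 1, that at the deposited start, holds the word. The deposited models of Tdpoz4 and Tdpoz5 are single exons, and where transcription starts was not measured.

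Zfp352 started first and rose at each step up to the 2-cell stage. It was listed at 0 in all 3 CC libraries and stood at 0.350 ± 0.183 TPM at 6 hpa (SD, n = 6; lowest 0.135, median 0.301, highest 0.633). At 14 hpa it was at 15.0 ± 2.68 TPM (lowest 11.1, median 14.7, highest 18.0), and at E2C at 59.3 ± 18.8 TPM (lowest 28.7, median 63.3, highest 76.3). None of these ranges overlap. The log2 fold change from 6 hpa to 14 hpa, on the log2(TPM + 1) scale, was 3.56 ± 0.59 (SE; limma, adjusted p = 9.5e-06), where 6.14% of the 11867 genes tested were called higher. A gene was called at an adjusted p under 0.05 and a fold of at least 2. From 14 hpa to E2C the log2 fold change was 1.86 ± 0.59 (adjusted p = 0.0405), where 2.78% were called higher. That last call was lost without any 1 of 10 of the 12 libraries, at adjusted p = 0.053 to 0.10, and held without L2C replicate 1 and morula replicate 3 (adjusted p = 0.000205).

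Sp110 and Arg2 had a different start, since their transcripts were present before the embryonic genome is active. At 6 hpa Sp110 ranged from 55.8 to 137 TPM (median 102) and Arg2 from 17.8 to 45.6 TPM (median 25.3), against 0.294 and 1.23 TPM at most in CCs. Arg2 rose by a log2 fold change of 2.26 ± 0.59 to 14 hpa (adjusted p = 0.0049), its highest stage, with a median of 178 TPM. The 14 hpa libraries fell into sets that did not overlap: replicates 1 to 3 held 36.3, 56.2 and 87.2 TPM of Arg2 and replicates 4 to 6 held 274, 269 and 346. Sp110 split the same way, with 48.8, 54.1 and 85.4 TPM in replicates 1 to 3 and 189, 171 and 239 in replicates 4 to 6. At E2C both split again between these replicates, Sp110 with 20.9 to 42.4 against 62.5 to 71.6 TPM and Arg2 with 30.4 to 50.2 against 66.8 to 104. The labels name no batch for this split, and what sets it was not tested.

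The Tdpoz genes and Ubtfl1 were near 0 until E2C and were seen in only part of the E2C libraries. At 6 hpa Tdpoz1 to Tdpoz4 were at 0.790 TPM or less in each library and Tdpoz5 at 1.94 or less. At E2C, Tdpoz5 was at 4.79 to 8.44 TPM in replicates 1 to 4 but at 0.360 and 0.00648 in replicates 5 and 6. Tdpoz1 reached 6.11 and 3.14 TPM in E2C replicates 1 and 2 and was at 0.224 or less in the other 4. Tdpoz3 and Tdpoz4 were above 1 TPM in E2C replicate 1 alone, at 2.72 and 2.33 TPM. Ubtfl1 ranged from 0.708 to 26.0 TPM at E2C (median 5.33) and from 0 to 9.82 TPM at 14 hpa (median 0.838). At E2C it was at 6.64 to 26.0 TPM in replicates 1 to 3 and at 0.708 to 4.02 in replicates 4 to 6. None of these 5 genes passed the test between 14 hpa and E2C, nor did Tdpoz2, which stayed at 0.0968 TPM or less at E2C.

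**Figure D1:**
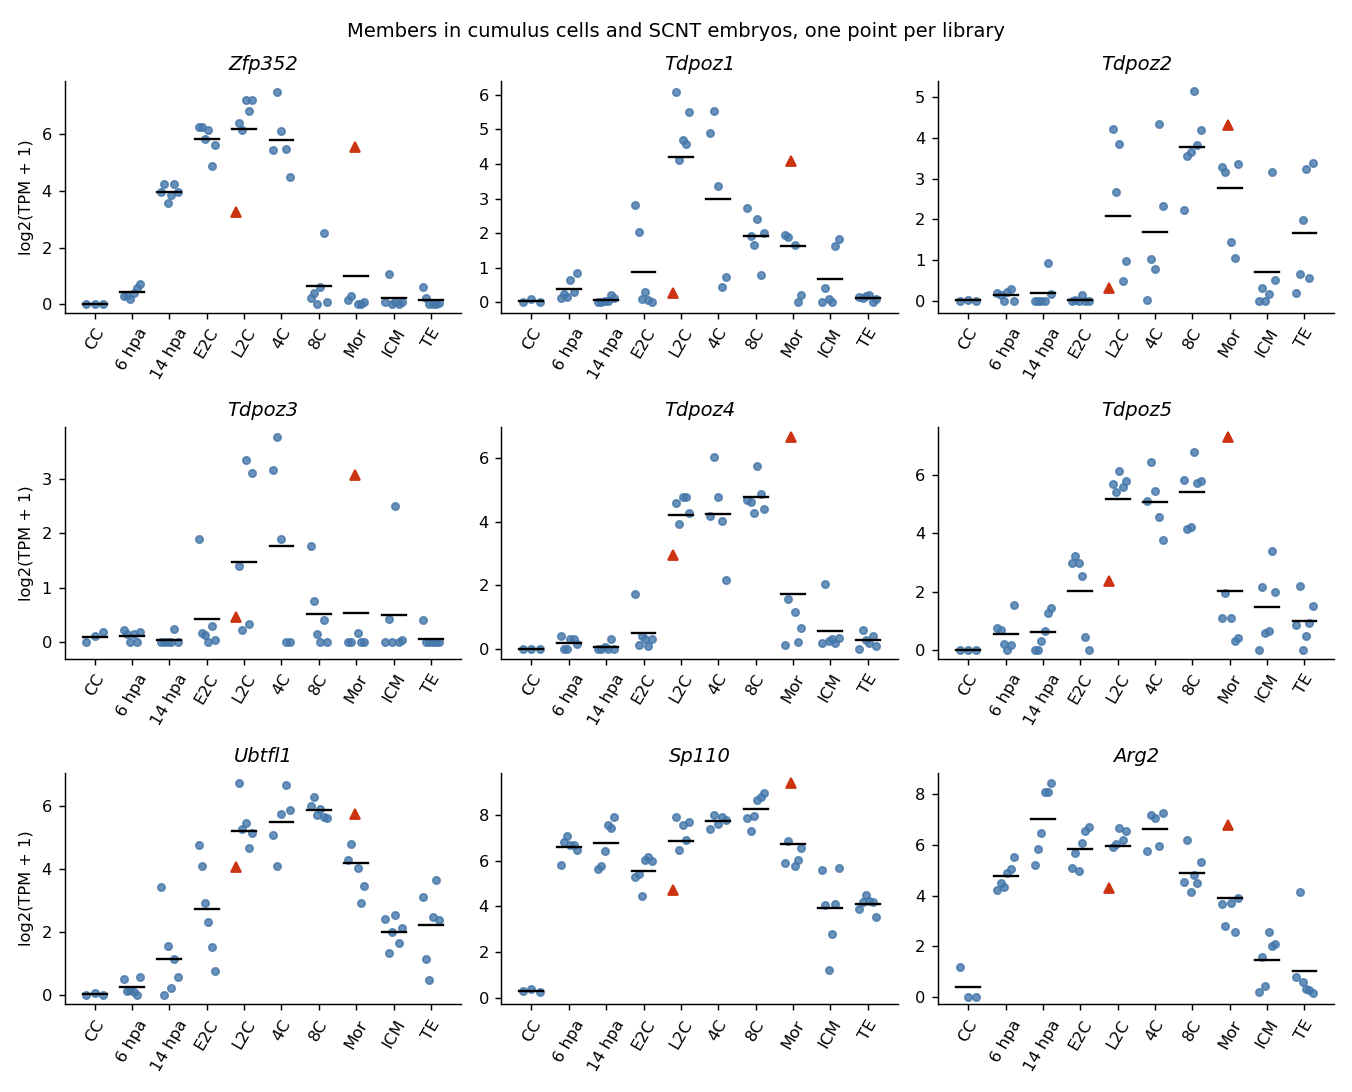
Levels of the 9 genes as log2(TPM + 1) in each of the 56 SCNT-series libraries, by stage from CC to TE, with 1 panel per gene; each point is a library, black lines are stage means, and red triangles are L2C replicate 1 and morula replicate 3. Zfp352 leaves the floor at 14 hpa, the Tdpoz genes and Ubtfl1 at E2C or L2C, and Sp110 and Arg2 are already high at 6 hpa.

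Most of the genes rose between the early and the late 2-cell stage. From E2C to L2C 6 of the 9 were called higher and none lower, against 23.7% of all genes called higher, and the median log2 fold change was 2.06 over the 9 genes and 0.26 over all genes. Tdpoz4 rose from 0.557 ± 0.873 to 19.1 ± 7.64 TPM (log2 fold change 3.70 ± 0.58, adjusted p = 8.4e-07). Tdpoz1 rose from 1.6 ± 2.53 to 29.2 ± 23.5 TPM (3.32 ± 0.68, adjusted p = 9.2e-05), and Tdpoz5 from 4.57 ± 3.59 to 44.9 ± 22.2 TPM (3.14 ± 0.74, adjusted p = 0.00053). Ubtfl1 rose from 9.24 ± 9.90 to 43.3 ± 31.7 TPM (2.49 ± 0.54, adjusted p = 0.00020), and Tdpoz2 from 0.0177 ± 0.0389 to 6.29 ± 7.40 TPM (2.06 ± 0.63, adjusted p = 0.0073). Sp110 rose from 50.0 ± 19.5 to 146 ± 82.8 TPM (1.33 ± 0.54, adjusted p = 0.044), a call lost without any 1 of 7 of the 12 libraries (adjusted p = 0.061 to 0.12). All 6 calls held without L2C replicate 1. Zfp352 held 95.2 ± 53 TPM at L2C and Arg2 68 ± 29.3 TPM, and neither passed this test. Tdpoz3 held 3.20 ± 4.08 TPM and was called without L2C replicate 1 and morula replicate 3 (log2 fold change 1.26, adjusted p = 0.042).

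Between 14 hpa and L2C, across the whole of the 2-cell stage, 7 of the 9 genes were called higher, against 29.1% of all genes. These were Zfp352 (log2 fold change 2.20, adjusted p = 0.0016), Ubtfl1 (4.07) and all 5 Tdpoz genes, from 1.44 for Tdpoz3 (adjusted p = 0.021) to 4.57 for Tdpoz5. Sp110 and Arg2, already present at 14 hpa, did not pass. All 7 calls held without L2C replicate 1, while that of Tdpoz3 was lost without L2C replicate 4 or 6 (adjusted p = 0.096 and 0.085) and that of Tdpoz2 without L2C replicate 2 (adjusted p = 0.054).

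The 6 late 2-cell libraries differed widely, with a coefficient of variation for Zfp352 of 55.7%. It was 17.9% at 14 hpa, 31.6% at E2C and 88.7% at 4C, so L2C was not the stage of widest spread. Without replicate 1 the other 5 L2C libraries held 113 ± 35.5 TPM (SD). Zfp352 was at 8.55 TPM in replicate 1, 84.0 in replicate 2, 70.3 in replicate 3, 148 in replicate 4, 113 in replicate 5 and 147 in replicate 6. In TPM as deposited, replicate 1 lay below every E2C library and every 14 hpa library. Scaled to the sum of the reference genes it still lay below every E2C library (28.1 against 41.5 or more), but within the 14 hpa range (17.4 to 28.8). Tdpoz5 was at 4.10 TPM in replicate 1 and at 42.1 to 70.5 in the other 5, and Tdpoz1 at 0.213 TPM against 16.2 to 67.4. Replicate 1 was the lowest library in 8 of the 9 genes, the exception being Tdpoz3, where replicate 3 was lower (0.171 against 0.373 TPM). The mean of the other 5 libraries exceeded replicate 1 by 165-fold for Tdpoz1, 31.2-fold for Tdpoz2, 13.2-fold for Zfp352 and 12.9-fold for Tdpoz5, but by 3.18-fold for Tdpoz4, 3.09-fold for Ubtfl1 and 4.22-fold for Arg2. After each library was scaled to the sum of its reference genes, these folds were 90.5 for Tdpoz1, 17.2 for Tdpoz2, 7.0 for Zfp352, 6.94 for Tdpoz5, 1.70 for Tdpoz4, 1.72 for Ubtfl1 and 2.25 for Arg2, and replicate 1 was the lowest in 6 of the 9. Other genes were low in it too: the summed TPM of other 2-cell genes was 49.3 against 1006 to 1652 in the other 5 libraries, that of factors known to switch MERVL on was 331, the lowest of the 6 libraries, and that of oocyte transcripts was 345 against 755 to 1103. These sums are in TPM as deposited and were not scaled to the reference genes. The factor sum had a median of 4837 TPM at E2C and 1163 at L2C. In that step Dppa4, Obox3 and Dppa2 were called higher and Obox5 lower, so the sum does not stand for each factor. The transcriptome of replicate 1 correlated at r = 0.870 with the mean of the other L2C libraries and at 0.735 with the E2C mean, across genes.

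The other 5 libraries were also uneven, but not in 1 order. Replicates 2 and 4 were each the highest in 4 of the 9 genes. Ubtfl1 was at 105 TPM in replicate 2 against 15.8 to 42.9 in the rest, and Sp110 at 244 TPM in replicate 2 and 25.0 to 210 in the rest. Tdpoz3 was at 9.16 and 7.62 TPM in replicates 4 and 6 and at 1.63 or less in the others. Tdpoz2 was at 17.4, 5.38 and 13.3 TPM in replicates 2, 3 and 4 but at 0.385 and 0.975 in replicates 5 and 6, where Tdpoz1 reached 22.8 and 44.1. Tdpoz1 and Tdpoz2 thus differed in which libraries held them, within the limit on splitting reads between them.

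**Figure D2:**
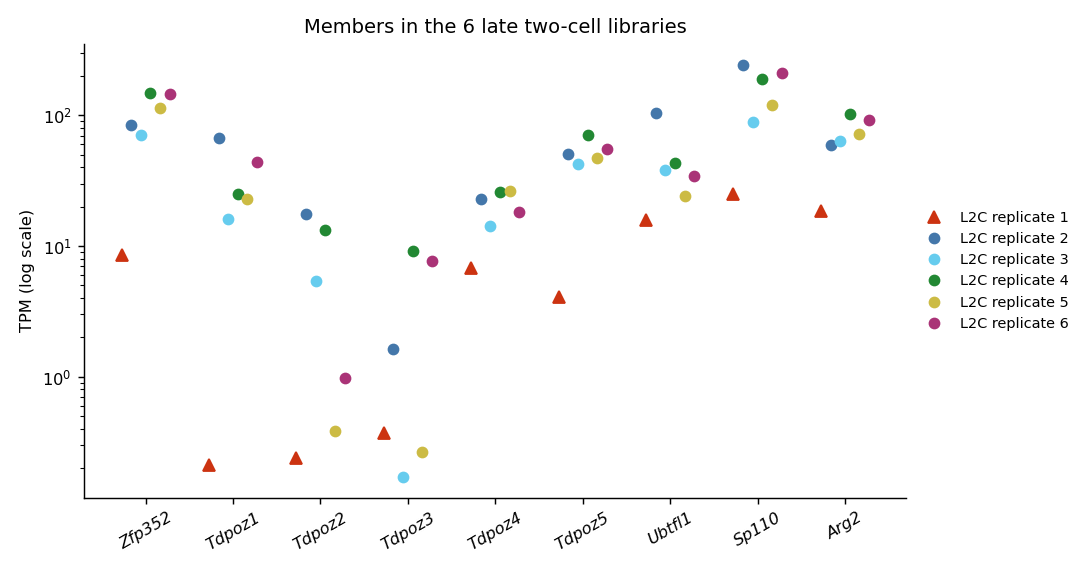
TPM of the 9 genes in each of the 6 L2C libraries on a log axis; points are libraries and the red triangle is replicate 1. Replicate 1 is lowest in 8 of the 9 genes, and the spread of the other 5 is widest for Tdpoz2 and Tdpoz3.

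All 9 genes were still detected at the 4-cell stage in some or all libraries. No gene of the 9 was called between L2C and 4C by limma, and 0 had an unadjusted p under 0.05, although 38.4% of all genes were called in either direction; without L2C replicate 1 and morula replicate 3, Tdpoz1 was called lower (log2 fold change −1.99, adjusted p = 0.0067). The replicate numbers split this step. With replicates 4 to 6 alone Tdpoz1 (−4.33), Zfp352 (−2.10), Tdpoz5 (−1.68) and Tdpoz4 (−1.50) were called lower and Ubtfl1 (1.19) higher. Calls were common in that subset, where 3651 of all genes were called lower and 2226 higher. With replicates 1 to 3 alone Tdpoz2 (−1.79) was called lower and Tdpoz3 (2.25) higher, where 1996 of all genes were called lower and 870 higher. The mean of Zfp352 went from 54.3 TPM at L2C to 97.9 at 4C in replicates 1 to 3, and from 136 to 32.6 in replicates 4 to 6.

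In single 4C libraries, Zfp352 was at 43.3, 182, 68.7, 43.4 and 21.8 TPM in replicate order, so it was at 21.8 TPM or more in each. Tdpoz4 was at 17, 65.1, 26.4, 15.4 and 3.45 TPM and Tdpoz5 at 33.6, 85.7, 42.7, 22.8 and 12.6. Replicate 2 was the highest 4C library for Zfp352, Sp110 and 4 of the 5 Tdpoz genes. Tdpoz1 was at 28.8, 45.7 and 9.40 TPM in replicates 1 to 3 but at 0.356 and 0.662 in replicates 4 and 5, and Tdpoz3 at 7.99, 12.6 and 2.71 against values near 0 in the same libraries. Tdpoz2 went the other way, with 0.0136, 1.03 and 0.714 TPM in replicates 1 to 3 and 19.1 and 4.02 in replicates 4 and 5. Ubtfl1 was at 33.1, 16.3, 52.6, 101 and 57.8 TPM, and Sp110 was the most even, at 168 to 261 TPM.

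The 8-cell stage was where Zfp352 was lost. At 8C it stood at 0.976 ± 1.88 TPM (lowest 0, median 0.238, highest 4.78), and the log2 fold change from 4C was −5.18 ± 0.62 (adjusted p = 9.9e-09), where 8.23% of all genes were called lower. Every 8C library lay below every 4C library. Arg2 fell by 1.73 on the log2 scale (SE 0.62, adjusted p = 0.036), from 109 ± 47.5 to 33.0 ± 20.7 TPM, a call that was lost without any 1 of 7 of the 11 libraries (adjusted p = 0.059 to 0.093). Tdpoz2 rose in the same step, from 4.97 ± 8.04 to 15.1 ± 10.3 TPM (log2 fold change 2.07 ± 0.66, adjusted p = 0.019), where 11.5% of all genes were called higher, and this call was lost without 4C replicate 1, 2 or 3 or 8C replicate 4 (adjusted p = 0.058 to 0.098).

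The other 6 genes did not pass the test between 4C and 8C, and their levels differed. Tdpoz3 had a median of 2.71 TPM at 4C and 0.220 at 8C (log2 fold change −1.25, adjusted p = 0.10), and Tdpoz1 of 9.40 and 2.88. Tdpoz4 ranged from 18.3 to 52.8 TPM (median 24.3), Tdpoz5 from 16.6 to 111 (median 53.3), Ubtfl1 from 48.1 to 76.7 (median 55.1) and Sp110 from 158 to 508 (median 330). Sp110 split by replicate number at 8C, with 158 to 248 TPM in replicates 1 to 3 and 412 to 508 in replicates 4 to 6. Its mean went from 207 TPM at 4C to 213 at 8C in replicates 1 to 3, and from 232 to 457 in replicates 4 to 6. By stage median, 5 genes were highest at 8C, namely Tdpoz2, Tdpoz4, Tdpoz5, Ubtfl1 and Sp110, while Zfp352 and Tdpoz1 were highest at L2C, Tdpoz3 at 4C and Arg2 at 14 hpa. The 8C median of Zfp352 was 0.241% of its L2C median, and that of Tdpoz1 was 12.1%. The L2C median was already 91.3% of the 8C median for Tdpoz5 and 84.3% for Tdpoz4.

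**Figure D3:**
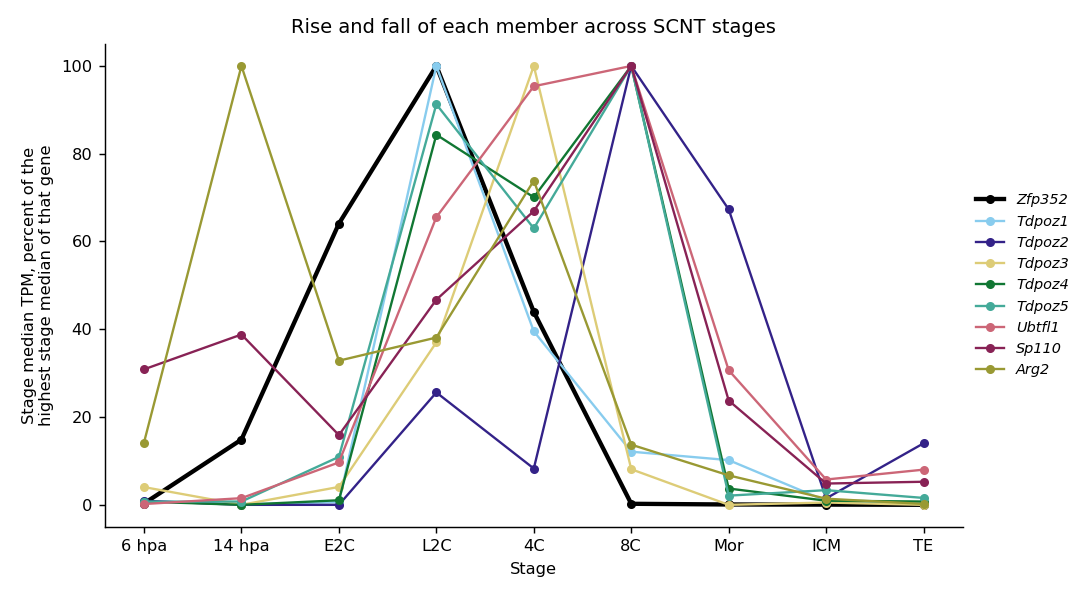
Median TPM of each gene at each of the 9 embryonic stages as a percentage of that gene's own highest stage median. In TPM as deposited, Zfp352 peaks at L2C and is at 0.241% at 8C, while Tdpoz4, Tdpoz5, Ubtfl1 and Sp110 peak at 8C and drop at the morula stage. By mean TPM, Tdpoz4, Tdpoz5 and Ubtfl1 were not higher at 8C than at 4C in both replicates 1 to 3 and replicates 4 to 6.

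Between 8C and morula 4 of the 9 genes were called lower, against 3.48% of all genes. Tdpoz5 fell by 3.40 on the log2 scale (SE 0.74, adjusted p = 0.00087) and Tdpoz4 by 3.03 (SE 0.58, adjusted p = 0.00018). Ubtfl1 fell by 1.66 (SE 0.54, adjusted p = 0.032) and Sp110 by 1.52 (SE 0.54, adjusted p = 0.0497). Without morula replicate 3 the same 4 genes were called, with log2 fold changes of −4.46, −4.02, −1.97 and −2.05. A locus assembled on the same strand over Ubtfl1 and beyond its end had a median of 67.5 TPM at 8C and 728 at morula, and it is not part of the level tested. The calls of Ubtfl1 and Sp110 were lost without 8C replicate 1 or morula replicate 4, 5 or 6 (adjusted p = 0.059 to 0.13), and those of Tdpoz4 and Tdpoz5 were held. In the other 5 morula libraries Tdpoz4 was at 0.0980 to 1.96 TPM and Tdpoz5 at 0.223 to 2.84, below every 8C library. Tdpoz2 was again an exception, with a morula median that was 67.3% of its 8C median.

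Morula replicate 3 stood far above the other morula libraries in most of the 9 genes. Tdpoz5 was at 156 TPM, Tdpoz4 at 99.2, Zfp352 at 46.0, Sp110 at 680 and Arg2 at 109, where the other 5 libraries reached at most 2.84, 1.96, 0.235, 117 and 14.0 TPM. It exceeded every 8C library in 7 of the 9 genes, Tdpoz2 and Ubtfl1 being the exceptions. For Tdpoz4, Tdpoz5 and Sp110 it was above every library of every earlier stage. The 9 genes summed to 1186 TPM in it and to 77.4 to 166 in the others. Other 2-cell genes summed to 828 TPM in it against 163 to 399, and relatives of the 9 genes to 215 against 53.4 to 157. Its ICM marker sum was 67.2 TPM against 109 to 437 in the other morula libraries, and its TE marker sum was 1439 against 258 to 1168. Their part in the levels of the 9 genes was not tested.

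By the blastocyst little was left of most of these genes in SCNT embryos. Zfp352 was at 1.08 TPM or less in all 6 ICM and at 0.510 or less in all 6 TE libraries, and Tdpoz3, Tdpoz4 and Tdpoz1 passed 1 TPM in 1, 1 and 2 of the 12. Ubtfl1, Sp110, Tdpoz2, Tdpoz5 and Arg2 were the genes seen at 1 TPM or more in more of them. Ubtfl1 was at 3.18 ± 1.23 TPM in the ICM (lowest 1.54, median 3.18, highest 4.76) and at 4.93 ± 4.13 in the TE (lowest 0.405, median 4.42, highest 11.5). Sp110 was at 22.7 ± 20.8 TPM in the ICM (1.34 to 50.0) and at an even 16.3 ± 3.72 in the TE (10.6 to 21.3). Tdpoz2 was at 2.92, 8.47 and 9.41 TPM in TE replicates 3, 4 and 6 and at 0.562 or less in the other 3, and in the ICM it reached 7.95 TPM in replicate 5 and 0.422 or less in the rest. Tdpoz5 ranged from 0 to 9.44 TPM in the ICM (median 1.78) and from 0 to 3.54 in the TE (median 0.838). Arg2 was at 1 TPM or more in 4 of 6 ICM libraries (0.126 to 4.85, median 2.49), and in the TE it was at 16.5 TPM in replicate 2 and at 0.719 or less in the other 5.

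From morula to ICM 4 genes were called lower, against 15.0% of all genes: Sp110 (log2 fold change −2.84, adjusted p = 5.2e-05), Arg2 (−2.44, adjusted p = 0.0013), Ubtfl1 (−2.20, adjusted p = 0.0016) and Tdpoz2 (−2.08, adjusted p = 0.010). From morula to TE 3 were called lower, against 10.8%: Arg2 (−2.88, adjusted p = 0.00017), Sp110 (−2.67, adjusted p = 0.00014) and Ubtfl1 (−2.0, adjusted p = 0.0043). All 7 calls held without morula replicate 3, with log2 fold changes of −1.69 to −2.31. With replicates 4 to 6 alone the call of Tdpoz2 in the ICM (−0.67, adjusted p = 0.62) and that of Ubtfl1 in the TE (−0.63, adjusted p = 0.25) were lost. No gene of the 9 was called between SCNT ICM and TE by limma, and 0 had an unadjusted p under 0.05, where 5.34% of all genes were called in either direction. The TE marker sum was 1936 to 8498 TPM in SCNT ICM and 5157 to 16180 in SCNT TE, and the ICM marker sum was 211 to 391 and 58.6 to 228, so the lineages overlapped in both. The part of this overlap in the values was not tested.

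The blastocyst was also set against 6 hpa, before Zfp352, the Tdpoz genes and Ubtfl1 start. Sp110 and Arg2 were already present at 6 hpa, so for these genes it is not a level before the start. Ubtfl1 was higher than at 6 hpa in the ICM (log2 fold change 1.77, adjusted p = 0.0033; 37.7% of all genes higher) and in the TE (1.97, adjusted p = 0.0011; 40.8% higher), so its residue lay above the starting level. With replicates 1 to 3 alone both calls were lost (adjusted p = 0.072 and 0.15). Tdpoz2 was higher in the TE (1.53, adjusted p = 0.027), a call lost without TE replicate 4 or 6 (adjusted p = 0.091 and 0.097). Sp110 and Arg2 were lower in the ICM (−2.69 and −3.29; 30.8% of all genes lower) and in the TE (−2.51 and −3.73; 28.8% lower). Zfp352 and the other 4 Tdpoz genes passed in neither lineage. Shares of this size are near or above those of the members, so the counts say nothing particular of these genes.

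Fertilized blastocysts are set beside these values, without a test, since strain and experiment differ. Zfp352 was listed at 0 in all 12 fertilized libraries, and Tdpoz4 was at 0 in 11 and near 0 in 1. Tdpoz1 reached 3.97 TPM and Tdpoz3 1.13 at most, both in MO libraries of the TE. Ubtfl1 was at 6.32 and 6.78 TPM in control ICM and at 7.29 and 10.5 in control TE. Tdpoz2 was at 0 and 5.45 TPM in control ICM and at 6.60 and 15.7 in control TE. Tdpoz5 was at 3.49 and 12.4 TPM in control ICM and at 0 and 1.06 in control TE. Sp110 was at 13.7 and 8.52 TPM in control ICM and at 21.6 and 14.7 in control TE. Control ICM replicate 1 had a TE marker sum of 16030 TPM against 347 in replicate 2. What this does to the control ICM values was not tested.

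**Figure D4:**
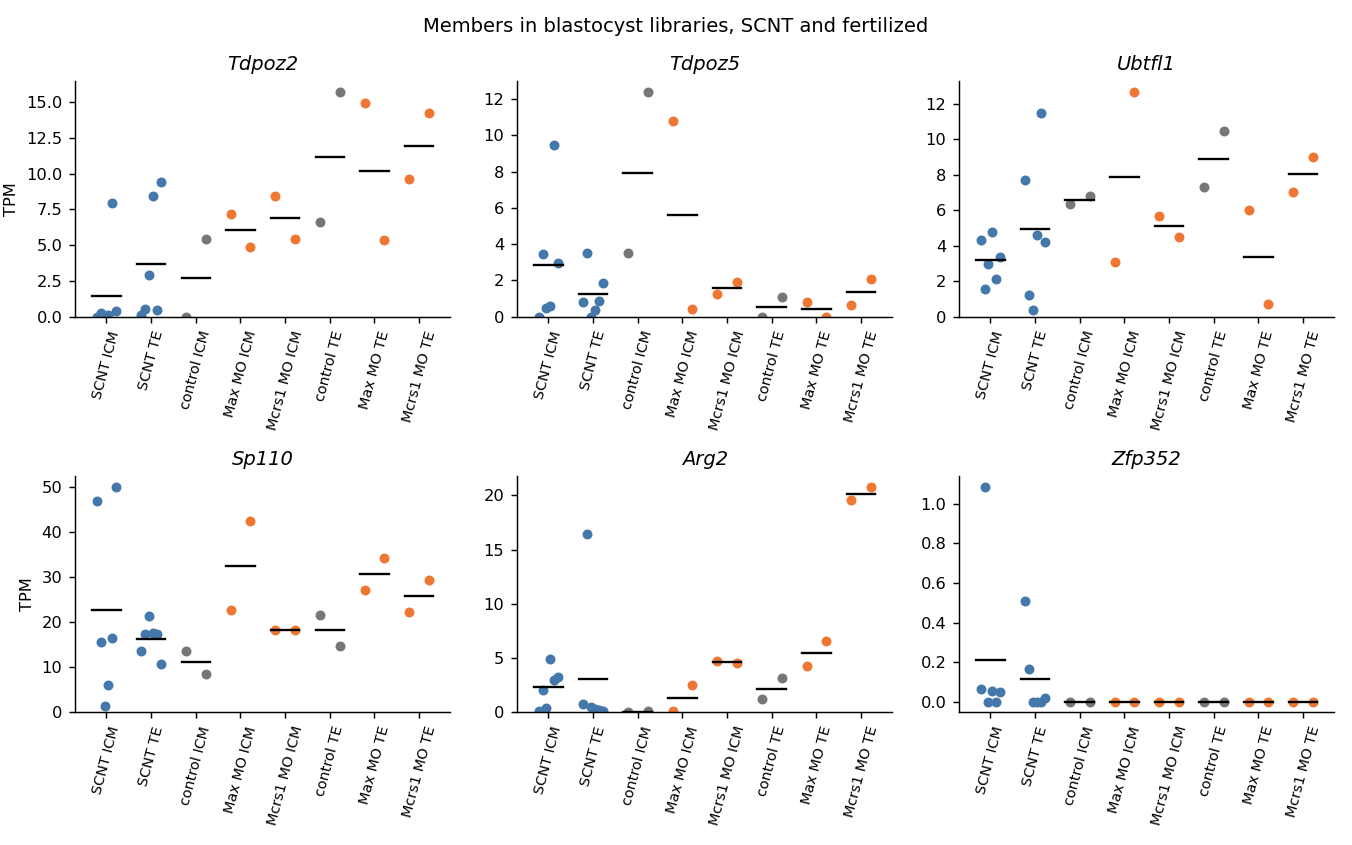
TPM of Tdpoz2, Tdpoz5, Ubtfl1, Sp110, Arg2 and Zfp352 in each blastocyst library: SCNT ICM and TE (6 each, blue), fertilized controls (2 each, grey) and Max MO and Mcrs1 MO (2 each, orange), with lines at the means. Zfp352 is at 0 in all 12 fertilized libraries, and Arg2 is at 19.5 and 20.7 TPM in Mcrs1 MO TE.

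Max, the partner of Myc family factors, and Mcrs1, a nucleolar and chromatin-bound protein, were blocked in the second set. Max mRNA was at 38.0 and 8.42 TPM in control ICM and at 6.82 and 0.443 in Max MO ICM, and in the TE at 34.5 and 28.5 against 16.3 and 8.68. Mcrs1 mRNA was at 253 and 310 TPM in control ICM and at 86.8 and 73.4 in Mcrs1 MO ICM, and in the TE at 219 and 294 against 41.1 and 45.5. A morpholino need not lower its mRNA. Of the 9 genes, 5 had enough signal to be tested here, and Zfp352, Tdpoz1, Tdpoz3 and Tdpoz4 did not.

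Arg2 was the gene of the 9 called after Mcrs1 MO. It was at 0 and 0.0792 TPM in control ICM and at 4.69 and 4.52 in Mcrs1 MO ICM (log2 fold change 2.43 ± 0.64, adjusted p = 0.036), where 4.88% of 11219 genes were called higher. In that contrast 2 of the 5 ICM markers, Klf2 (−2.64) and Fgf4 (−2.30), were called lower, and the ICM marker sum was 262 and 573 TPM against 792 and 916 in controls. None of the 6 TE markers was called, and their sum was 11678 and 8174 TPM against 16030 and 347. The part of the lineage mix in the Arg2 values was not tested. In the TE it was at 1.17 and 3.15 TPM in controls and at 19.5 and 20.7 after Mcrs1 MO (2.82 ± 0.64, adjusted p = 0.030), where 1.77% were called higher. The difference between the lineages was −0.38 ± 0.90 (SE) and was not called (limma, adjusted p = 0.91). In that contrast 0 of 11219 genes were called, so it cannot tell whether the 2 lineages responded alike. With Max MO, Sp110 was at 22.7 and 42.4 TPM in the ICM against 13.7 and 8.52 in controls (1.44 ± 0.41, adjusted p = 0.024; 8.65% called higher), and no gene of the 9 was called in the TE by limma, with 0 at an unadjusted p under 0.05 (2.50% of all genes in either direction). With 2 libraries a group these calls are fragile: the Sp110 call was lost without Max MO ICM replicate 2, and the Arg2 call in the TE without any 1 of its 4 libraries. The Arg2 call in the ICM was lost without Mcrs1 MO ICM replicate 1 or 2 (adjusted p = 0.15 and 0.12), under quantile normalization (0.068), with every gene above 0 TPM tested (0.082) and with the ICM fitted alone (0.16).

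Other genes of the 2-cell programme were taken from a list of 29, of which 26 could be tested. From 14 hpa to L2C 18 were called higher and 2 lower, where 29.1% and 14.0% of all genes were, and their median log2 fold change was 1.97 against 0.37 over all genes; AF067063 (5.25), Usp17lb (5.11), Rfpl4b (4.29) and Gm5662 (4.26) changed most. From L2C to 4C 9 were called lower and 1 higher, led by Zscan4c (−3.39) and Rfpl4b (−3.36), where 26.6% of all genes were called lower, and their median of −0.26 was close to the −0.33 of all genes. From 4C to 8C 12 were called lower and 2 higher, where 8.23% of all genes were called lower, with a median of −1.26 against 0.04, led by Gm4027 (−4.11) and BB287469 (−3.90). Between 8C and morula, where Tdpoz4, Tdpoz5, Ubtfl1 and Sp110 fell, 1 of the 26 was called lower and none higher. Of all genes 3.48% were called lower and 8.74% higher there, so the share of the 26 called lower was near that of all genes.

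The factors known to act on MERVL moved in mixed directions. Dux itself was at 2.07 TPM or less in every SCNT library and at 1.10 or less at L2C. Of 7 factors that switch MERVL on, 5 were tested, and from E2C to L2C Dppa4 (log2 fold change 3.54), Obox3 (3.01) and Dppa2 (1.12) were called higher and Obox5 (−3.28) lower. Of 12 factors that hold it silent, 4 were called higher in that step, E2f6 (2.37), Trim28 (1.76), Mga (1.58) and Ehmt2 (1.52), and Kdm1a lower (−1.22), where 23.7% of all genes were called higher. From 4C to 8C, where Zfp352 fell, Trim28 alone of the 12 was called (1.26, higher). In the Max MO ICM 4 of the 12 were called lower, Mga, Setdb1, Rif1 and Kdm1a, and none higher, where 15.1% of all genes were called lower. Of 7 relatives of the 9 genes, Arg1, Sp140 and Ubtf were called higher from E2C to L2C among the 5 tested.

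The genes whose levels followed Zfp352 most closely over the 53 SCNT embryo libraries, by Pearson's r of log2(TPM + 1), were Gm21312 (0.928), Gm20765 (0.926), Gm6763 (0.920), Gm8764 (0.919) and Gm21293 (0.916). Those most like the sum of the Tdpoz genes were Gm10697 (0.950), Gm11544 (0.913), Slc35e3 (0.891), Slc19a3 (0.888) and Dnajb14 (0.883). The libraries share stages and depth, so these values are a description. The Gm genes near Zfp352 in this order had near-equal levels to each other, and reads may have been shared between them.

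Of the 5 genes most like Zfp352, 4 also hold the word printed above in the 250 bases before their start. For Gm6763 no window was at hand. These 4 had near-equal levels, with L2C means of 100 to 108 TPM, so they may not be separate cases. Of the 10 genes most like Zfp352, 9 had a window and 6 held the word, while Slc10a6, Usp17lc and Ankrd22 did not. Of the 10 most like the Tdpoz sum, 6 had a window and 1 held the word. Besides the 3 members, 36 genes hold the word, of which 15 were in the tables and 14 were tested. From 14 hpa to L2C 7 of the 14 were called higher and none lower, where 29.1% of all genes were called higher, with a median log2 fold change of 2.0 against 0.37. The 6 Gm genes that follow Zfp352 were among the 7 not called (1.03 to 1.3, adjusted p = 0.10 to 0.19). From 4C to 8C the 14 split, with 6 called lower and 5 higher, where 8.23% of all genes were called lower and 11.5% higher. Called lower, like Zfp352, were Gm20765, Gm21293, Gm21304, Gm21312, Gm4340 and Gm8764. Called higher were Gm13102, Pemt, Pramel4, Pramel5 and Sgk1.

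**Figure D5:**
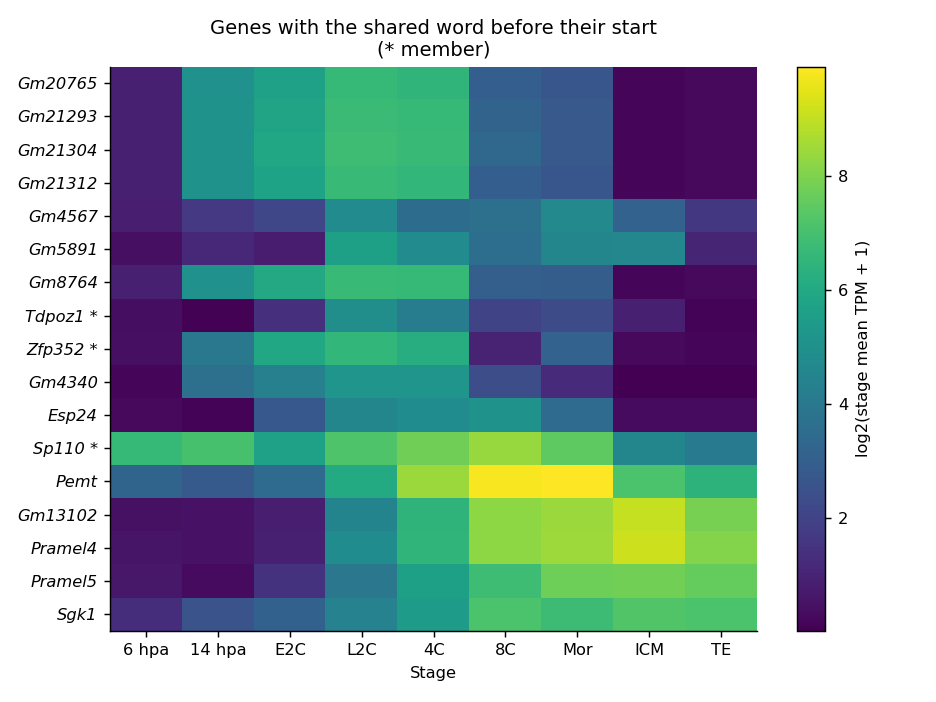
Mean level, as log2(stage mean TPM + 1), of 17 genes that hold the shared word before their start, by SCNT stage; an asterisk marks the members Zfp352, Tdpoz1 and Sp110. The block of Gm genes is high at the 2-cell and 4-cell stages with Zfp352, while Pramel4 and Pramel5 are high from 8C on.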

How the data were processed

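Smart-seq2 libraries of pools of 10 blastomeres, unstranded, were trimmed by the authors with cutadapt 1.16, aligned to mm10 with HISAT2 and assembled with StringTie, as the paper's methods and the submitters' processing notes give it. The authors deposited 1 gene table per library with coverage, FPKM and TPM. The TPM column is treated as a signal, because in the deposited tables the assembled loci with no gene name sum to 1000000 and the 24421 reference symbols form a second, overlapping set of rows. Coverage and FPKM as deposited served only to estimate depth. TPM is relative, so a level can move because other transcripts moved.

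TPM was summed per symbol, a gene entered the fit where its TPM averaged 1 or more, and log2(TPM + 1) was tested with limma 3.58.1 in R 4.3.3, in 1 fit over the 53 SCNT embryo libraries and 1 over the 12 fertilized ones, with Benjamini-Hochberg adjusted p-values over all genes tested. The + 1 understates changes of low genes. In simulated tables the fit was tested and its signs checked. Groups came from the sample labels; the 4C library labelled replicate 5 carries the number 6 on its deposited table, so its number, used in the block and the subsets by number, is uncertain. Tables were read in Python 3.11.15 with pandas 2.3.3 and numpy 2.4.6. All 9 genes are described in every comparison where they were tested. From each list, up to 4 genes with the largest change among those called are named, and for likeness the top 5. The 9 genes, the lists and the tests were chosen with earlier results of these data known, so lists are described by counts and medians. The promoter word was found after the sequences were seen. Same-numbered libraries deviated together, with every pair's correlation over 0.1, only at 14 hpa against 6 hpa (0.14 to 0.39) and ICM against TE; the labels do not say what a number marks. Alternatives were another pseudocount, other filters, rescaling and quantile normalization, the replicate block, the largest row per gene, replicates 1 to 3 and 4 to 6 alone, smaller fits and leaving out each library.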

Additional observations from a re-analysis of the deposited data

Results flagged for a closer look

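In 22 of 66 sets of 1 gene at 1 stage with a library at 1 TPM or more, the highest library lay beyond Dixon's limit for its group. That limit is passed by chance in about 1 in 20 groups of normal values; these sets were admitted by their highest library and their values are skewed, so the share is no measure against chance and the values are a description. Of these, 7 are morula replicate 3: Zfp352 at 46.0 TPM (others up to 0.235), Tdpoz1 at 16.1 (up to 2.88), Tdpoz3 at 7.36 (up to 0.128), Tdpoz4 at 99.2 (up to 1.96), Tdpoz5 at 156 (up to 2.84), Sp110 at 680 (up to 117) and Arg2 at 109 (up to 14.0). This library is 1 sample, so the 7 are not independent.

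In the ICM, the highest library differed from gene to gene: Zfp352 was at 1.08 TPM and Tdpoz4 at 3.16 in replicate 2 (others up to 0.0662 and 0.269), Tdpoz3 at 4.63 in replicate 4 (others up to 0.340), and Tdpoz2 at 7.95 and Tdpoz5 at 9.44 in replicate 5 (others up to 0.422 and 3.47). In the TE, Arg2 was at 16.5 TPM in replicate 2, against 0.719 or less in the other 5.

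At the stages of activation, Tdpoz3 and Tdpoz4 were at 2.72 and 2.33 TPM in E2C replicate 1, against 0.236 and 0.334 or less in the rest, and Ubtfl1 was at 9.82 TPM in 14 hpa replicate 1, against 1.91 or less, and at 105 TPM in L2C replicate 2, against 42.9 or less. Tdpoz5 was at 1.94 TPM in 6 hpa replicate 6, where the rest were at 0.669 or less. Later, Tdpoz2 was at 19.1 TPM in 4C replicate 4, against 4.02 or less. At 8C, Zfp352 was at 4.78 TPM in replicate 5 (others up to 0.538), Tdpoz3 at 2.42 in replicate 1 (up to 0.683) and Tdpoz4 at 52.8 in replicate 4 (up to 28.2). Many of these values lie near the lower end of what the tables list.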

How the results depend on the processing

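No called change of the 9 genes reversed under any alternative run. Counts of genes called, out of 9 across SCNT stages and 5 after morpholino, moved as follows. In parentheses are all genes called higher and then lower in that run. With replicates 1 to 3 alone the count was 1 at 14 hpa against 6 hpa (268, 485) and 0 at E2C against 14 hpa (1012, 306). It was 2 at L2C against E2C (1473, 1105) and 2 at 4C against L2C (870, 1996). It was 0 at morula against 8C (667, 162) and 2 at TE against 6 hpa (3860, 2931). With replicates 4 to 6 alone it was 3 at E2C against 14 hpa (66, 665), 5 at 4C against L2C (2226, 3651) and 1 at ICM against TE (498, 414). With every gene above 0 TPM tested it was 0 at E2C against 14 hpa (282, 341) and 2 at morula against 8C (871, 350). After morpholino it was then 1 in all, with 0 for Mcrs1 MO in the ICM (341, 380) and 0 in the TE (128, 256). A pseudocount of 0.1 gave 2 at morula against 8C (831, 312) and 0 for Mcrs1 MO TE (185, 316). Rescaling over reference genes gave 2 at E2C against 14 hpa (446, 400), and quantile normalization gave 0 for Mcrs1 MO ICM (525, 415). Fitting each lineage alone gave 1 after morpholino, with 0 for Max MO ICM (507, 564) and 0 for Mcrs1 MO ICM (0, 2). Leaving out both L2C replicate 1 and morula replicate 3, chosen after seeing the data, gave 1 at 4C against L2C (1162, 3373). The cause of these shifts was not tested.

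Leaving out 1 library at a time gave 0 to 2 at E2C against 14 hpa, 0 to 1 at 4C against L2C (1 without L2C replicate 1 or 4C replicate 2), 1 to 4 at 8C against 4C (1 without 4C replicate 2, 4C replicate 3 or 8C replicate 4), 2 to 4 at morula against 8C (2 without 8C replicate 1 or morula replicates 4, 5 or 6), and 1 to 4 after morpholino, with 0 to 1 for Max MO ICM, 0 to 2 for Mcrs1 MO ICM and 0 to 0 for Mcrs1 MO TE. With 2 libraries a group, the lone library left is assumed to vary like the other groups.

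The replicate block, which pairs libraries by number, changed no count by over 1.5 times: 6 at L2C against E2C, 4 at morula against 8C and 3 after morpholino, and Zfp352 from 14 hpa to E2C kept a log2 fold change of 1.86 (adjusted p = 0.0378).

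Scaling moved the balance of all genes. The share of called genes that were higher went from 67.9% to 79.0% when rescaled and 48.1% under quantile normalization at L2C against E2C, from 67.5% to 77.1% and 47.5% at L2C against 14 hpa, from 58.4% to 31.8% and 52.4% at 8C against 4C, and from 30.8% to 22.6% and 51.8% at 4C against L2C. It went from 71.5% to 64.0% and 48.2% at morula against 8C. The median of all genes was 0.26, 0.37 and −0.33 on the log2 scale at L2C against E2C, L2C against 14 hpa and 4C against L2C. Depth limits genes near 1 TPM most.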

Other observations

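Ubtfl1 has a longer partner in the assembled part of the tables. A locus on the same strand that overlaps it, and that reaches past its annotated end, was at 519 to 1007 TPM in the 6 morula libraries (median ratio to Ubtfl1 itself 40.5), at 43.6 to 922 TPM at L2C (11.9), at 18.2 to 3635 at 4C (1.12) and at 37.7 to 2958 at 8C (1.02). The level of Ubtfl1 given here leaves that locus out.

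After Mcrs1 MO, Gm2016, a 2-cell gene, was lower in the ICM (log2 fold change −2.28, adjusted p = 0.045) and higher in the TE (3.64, adjusted p = 0.015), and Ddit4l was higher in the TE (2.37, adjusted p = 0.021), each with 2 libraries a group. Esp24, which holds the shared promoter word 2 times, was among the 10 genes most like the Tdpoz sum (r = 0.874 over 53 libraries, as a description) and rose from 14 hpa to L2C (log2 fold change 4.22, adjusted p = 1.7e-09). Of those 10 genes 6 had a window, and Slc35e3, Slc19a3, Dnajb14, Ficd and Ctsl did not hold the word. Tdpoz8, Tdpoz9 and Spopfm2 hold the word as well and were not analysed here.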
